A study of Mus musculus with 9 samples.

Results

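The genes described here encode the machinery of oxidative phosphorylation in iNKT1 cells: the subunits of respiratory complexes I to IV and of the ATP synthase (complex V), with the assembly factors that share their gene symbols. Members were taken by symbol, as every gene whose mouse symbol begins with mt-Nd, mt-Co, mt-Atp, mt-Cytb, Nduf, Uqcr, Sdha, Sdhb, Sdhc, Sdhd, Cox4i, Cox5, Cox6, Cox7, Cox8 or Atp5. This gave 100 of the 14004 genes in the table, of which 7 are encoded by the mitochondrial genome and 93 by the nuclear genome. The nuclear members comprised 36 of complex I, 4 of complex II, 8 of complex III, 15 of complex IV, 16 of complex V, 13 assembly or coupling factors and 1 pseudogene. Of the 13 protein-coding genes that the reference annotates on the mitochondrial genome, mt-Nd1, mt-Nd2, mt-Nd4, mt-Nd5, mt-Nd6, mt-Cytb and mt-Co1 were analysed, and the other 6 were not analysed here.

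The cells were iNKT1 cells, invariant natural killer T cells of the T-bet-expressing subset, sampled in 3 tissues of the C57BL/6 strain, with 3 thymus, 3 liver and 3 spleen libraries. All 3 groups carried the genotype Tbx21CreTg;Rosa26-LSL-YFP+/+, in which a Cre recombinase under Tbx21 control opens a YFP reporter, and none was treated. The labels give no age or sex, and do not say whether the libraries of a tissue came from separate animals, so the p-values measure the spread between these samples, which may be technical. Values are normalised read counts, and a difference in bulk RNA cannot tell fewer cells of a type from less RNA per cell.

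Oxidative phosphorylation passes electrons from NADH and succinate through complexes I and II to ubiquinone, and on through complex III and cytochrome c to oxygen at complex IV. Complexes I, III and IV pump protons, and the ATP synthase uses the gradient to make ATP. The mitochondrial genome encodes the most hydrophobic core subunits of complexes I, III, IV and V, and these are made from long polycistronic transcripts that are cut at the tRNAs between the genes. All complex II subunits and all other subunits are nuclear encoded, so 2 genomes contribute to 1 machine. In T cells the balance between glycolysis and respiration is known to shift with activation and with residence in a tissue.

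Library size, estimated from the steps between low values, ran from 18507600 to 39565900 reads in 8 libraries and came to 3886210 in liver replicate 3. That last estimate is uncertain, because it takes 1 read as a value of 6.03 and only 68.0% of the low values of the library lay within 0.1 reads of whole multiples of it. Genes without a read were not listed alike: they stood at 0.0153 to 0.0446 in the thymus libraries, at 0.422 to 0.889 in liver replicate 3 and at 0 in the other 5 libraries. For genes near 0 this treatment and the comparisons with thymus cannot be told apart. Thymus replicates 1 and 2 had values of at least 1 for 10476 and 11180 genes, against 11551 to 12858 in the other 7. The mitochondrial ribosomal RNAs took 24.2% to 34.2% of all values. Xist was at 84543 or more in the library numbered 2 of every tissue and at most at 16531, in thymus replicate 3, in the others. The summed level of Y-linked genes was 9.36, 17.9 and 3.96 in the thymus, liver and spleen libraries numbered 2 and 7034 to 12521 in the others, with 8785 in thymus replicate 3. The column name of thymus replicate 2 carries a letter that the labels do not explain. The summed level of the 9 iNKT1 markers was 109340 to 139076 in thymus, 169348 to 188661 in liver and 118320 to 141496 in spleen, with all 9 detected. The 7 measured of 10 hepatocyte markers summed to 1415 to 1844 in liver, at most 0.00776% of values, to at most 269.6 in thymus and to at most 25.9 in spleen, and Fgb was below 1 in every thymus and spleen library. The 5 measured of 6 B cell markers summed to 3157 to 5351 in thymus, where Cd79a, Ms4a1 and Cd79b were below 1 in every library, to 5470 to 8085 in liver and to 5260 to 11124 in spleen. The 6 measured of 10 myeloid markers reached 279.2 in thymus, 1189 in liver and 4321 in spleen. The 4 measured of 6 immature thymocyte markers summed to 75.3 to 635.4 in thymus, where Rag1 was at 486.2 in replicate 3 and below 1 in the other libraries, to 165.3 to 287.0 in liver and to 232.5 to 308.9 in spleen. The 4 measured of 7 markers of iNKT2 and iNKT17 cells, the sister subsets, summed to 824.6 to 2215 in thymus, 1152 to 1455 in liver and 1330.3 to 2061 in spleen, and the 5 measured of 6 erythroid markers to at most 605.6. The part of these cells in the results was not tested.

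The 4 mitochondrial genes that the results turn on are shown by their first 45 bases, with the first codon in capitals, because these transcripts begin at or next to the start codon. Coordinates and sequences are from GENCODE M21 on GRCm38, the assembly that the submitters' processing notes call mm10.
mt-Nd1, chrM:2751-2795, plus strand: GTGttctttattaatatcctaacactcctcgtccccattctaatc
mt-Nd2, chrM:3914-3958, plus strand: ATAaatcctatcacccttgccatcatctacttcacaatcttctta
mt-Co1, chrM:5328-5372, plus strand: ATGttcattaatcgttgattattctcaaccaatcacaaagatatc
mt-Nd6, chrM:14026-14070, minus strand: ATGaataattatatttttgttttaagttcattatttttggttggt

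Those first codons show the wider set of start codons that mitochondria use, GTG and ATA beside ATG. The annotated end of mt-Nd2 runs 2 bases into the gene of the tryptophan tRNA, mt-Tw, which is the kind of junction where the polycistronic transcript is cut. The last 45 bases of mt-Nd2 are given with the 2 shared bases in capitals.
mt-Nd2, chrM:4907-4951, plus strand: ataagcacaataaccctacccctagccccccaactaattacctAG

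mt-Nd6 is the only one of the 7 on the minus strand, and its end overlaps that of mt-Nd5 on the other strand. Whether the counting used strand is not given in the sources used here, so reads of mt-Nd6 and reads antisense to it cannot be told apart. Nuclear copies of mitochondrial DNA could also share reads with these genes.

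Per kilobase of exon, and averaged over the tissues, the 7 mitochondrial mRNAs stood above all nuclear members. On this scale mt-Co1, the catalytic subunit of cytochrome c oxidase, had a normalised count of 209170. mt-Cytb, the cytochrome b of complex III, followed with 76703, then mt-Nd1 with 70981, mt-Nd4 with 36633, mt-Nd5 with 35219, mt-Nd6 with 15214 and mt-Nd2 with 13943, the last 5 being membrane subunits of complex I. Neither mt-Cytb and mt-Nd1 nor mt-Nd4 and mt-Nd5 differed in any tissue by more than the SD between libraries, and mt-Nd6 and mt-Nd2 did not in thymus and spleen. The nuclear member with the highest value on the same scale was Atp5b, the catalytic beta subunit of the ATP synthase, with 4086.

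In every library mt-Co1 supplied the largest part of the 7 mitochondrial mRNAs. Its normalised counts were 497336, 326769 and 266788 in thymus replicates 1, 2 and 3, then 407935, 228601 and 259842 in liver, and 405600, 228555 and 287087 in spleen. The tissues overlapped throughout, and the fitted log2 fold changes of mt-Co1 were -0.28 (SE 0.24) for liver vs thymus, -0.23 (SE 0.24) for spleen vs thymus and -0.05 (SE 0.24) for liver vs spleen.

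mt-Nd2, a membrane subunit of the proton-pumping arm of complex I, showed the widest separation of liver from spleen among the mitochondrial genes. Its normalised counts were 9190.2, 4366 and 5882 in liver replicates 1, 2 and 3, and 30731, 14825 and 18576 in spleen. The groups did not overlap. Means were 6479 ± 2467 in liver and 21378 ± 8315 in spleen (SD, n = 3 each), 3.30-fold lower in liver. The fitted log2 fold change was -1.72 (SE 0.41), with a limma-trend p of 0.906 after Benjamini-Hochberg adjustment over the 13309 genes tested, so it did not pass. The thymus libraries, at 15765, 24215 and 6702, spanned the gap between the other tissues, and the log2 fold changes against them were -1.15 for liver (adjusted p = 0.298) and 0.58 for spleen (adjusted p = 0.608).

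mt-Nd6 separated the same tissues. Its counts were 6839, 3425 and 5227 in liver and 12967, 7337 and 10361 in spleen, without overlap, with a fitted difference of -1.003 (SE 0.44) on the log2 scale. In thymus they were 8399, 13389.5 and 3122, a range wider than that of both other tissues. mt-Nd4, mt-Nd5, mt-Nd1 and mt-Cytb were also lower on average in liver than in spleen, with log2 fold changes of -0.74 (SE 0.33), -0.65 (SE 0.28), -0.53 (SE 0.38) and -0.52 (SE 0.26), but their liver and spleen values overlapped. For mt-Cytb, for example, liver held 75742, 61877 and 61394 and spleen 136946, 66664 and 93089. The plot of the mitochondrial counts shows these overlaps.

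**Figure D1:**
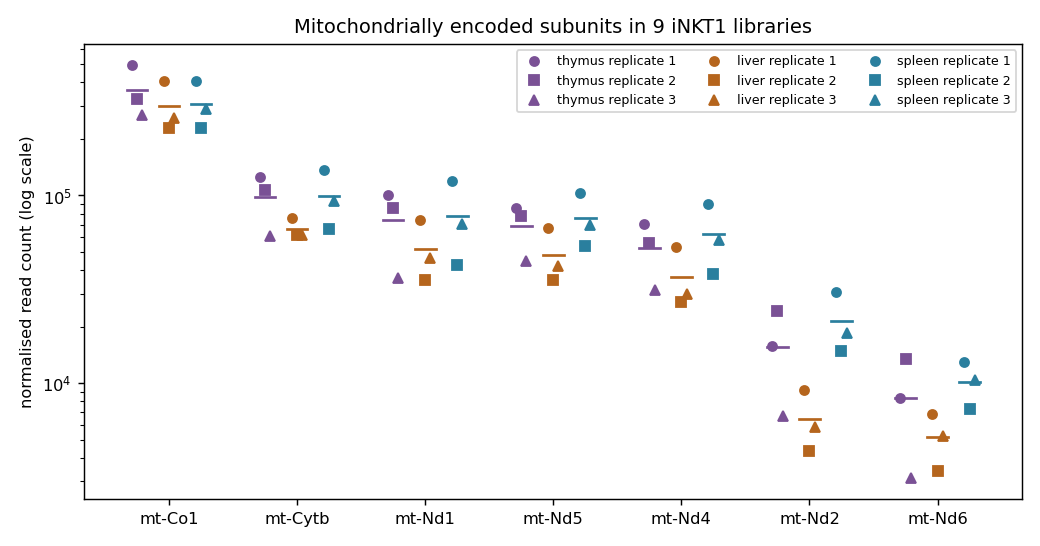
Normalised read count (log scale) of the 7 mitochondrially encoded members in each of the 9 libraries; symbols mark the replicates and bars the tissue means. mt-Nd2 and mt-Nd6 have all 3 liver libraries below all 3 spleen libraries, while the tissues overlap for mt-Co1 and mt-Cytb.

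By limma-trend, 0 of the 7 mitochondrial members passed an adjusted p of 0.05 in any of the 3 comparisons. Of all genes tested, 0.323% passed for liver vs thymus, 0.398% for spleen vs thymus and 0.015% for liver vs spleen. At an unadjusted p under 0.05 the mitochondrial counts were 1, 0 and 4 of 7, beside 11.6%, 11.7% and 3.03% of all genes. These counts moved with single libraries, from 0 to 6 for liver vs thymus (6 without thymus replicate 3), from 0 to 2 for spleen vs thymus (2 without thymus replicate 2) and from 1 to 6 for liver vs spleen (6 without spleen replicate 2, 1 without either of 2 liver or 2 spleen libraries). They were 4, 0 and 1 with TMM scaling and 5, 1 and 5 with the replicate block. The 4 for liver vs spleen were mt-Nd2, mt-Nd4, mt-Nd5 and mt-Nd6, all lower in liver. edgeR and DESeq2, on the 7 libraries whose read counts were recovered, also called 0 of the 7 in each comparison. The median log2 fold change of the 7 was -0.51 for liver vs thymus, 0.13 for spleen vs thymus and -0.65 for liver vs spleen, beside 0.29, 0.33 and -0.02 over all genes tested. The sign for spleen vs thymus was not stable, at -0.18 with TMM scaling, which brings the median of all genes to 0.04, at -0.12 without spleen replicate 1 and at -0.16 without thymus replicate 3.

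The 7 transcripts were measured in the same libraries, so their proportions within a library were set out as well. These are descriptions with no test, chosen after the values had been seen, and they share 1 denominator, the sum of the 7, which mt-Co1 dominates. mt-Nd2 made up 1.33%, 1.10% and 1.30% of that sum in liver replicates 1, 2 and 3, and 3.42%, 3.27% and 3.06% in spleen. Thymus replicates held 1.74%, 3.51% and 1.49%, so 1 thymus library stood above the spleen values and 2 stood between liver and spleen.

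mt-Co1 showed the reverse order, with 58.8%, 57.7% and 57.6% in liver, 45.1%, 50.5% and 47.2% in spleen and 55.0%, 47.3% and 59.3% in thymus. The shares of mt-Nd4, mt-Nd5 and mt-Nd6 were lower in all liver libraries than in all spleen libraries, with 6.64% to 7.63% against 8.48% to 10.004%, 8.93% to 9.63% against 11.4% to 11.96%, and 0.865% to 1.16% against 1.44% to 1.70%. The shares of mt-Nd1, 8.92% to 10.7% in liver and 9.47% to 13.3% in spleen, and of mt-Cytb, 10.9% to 15.6% and 14.7% to 15.3%, overlapped.

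Set against a single neighbour that lies just ahead of it on the same strand, mt-Nd2 had 0.124, 0.124 and 0.126 reads per mt-Nd1 read in liver, 0.256, 0.346 and 0.262 in spleen and 0.157, 0.284 and 0.184 in thymus. The liver ratio lay below all 6 other libraries and varied least between libraries, with an SD of 0.00151, against 0.04998 in spleen and 0.0666 in thymus. The same held for liver against mt-Co1, the coding gene that follows mt-Nd2, with 1.91 to 2.26 mt-Nd2 reads per 100 mt-Co1 reads in liver, 6.47 to 7.58 in spleen and 2.51 to 7.41 in thymus.

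**Figure D2:**
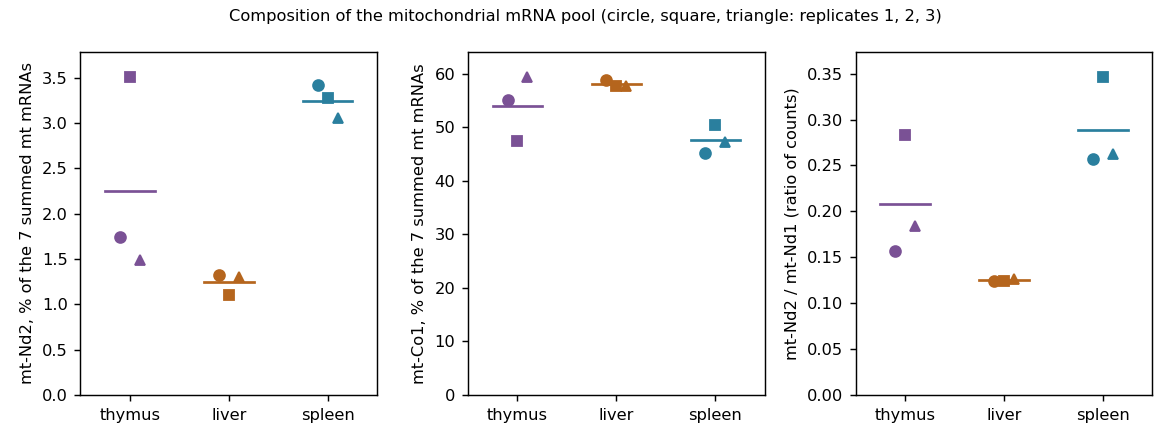
Share of mt-Nd2 (left) and of mt-Co1 (middle) in the sum of the 7 mitochondrial mRNAs, in percent, and the ratio of mt-Nd2 to mt-Nd1 counts (right), per library with bars at the tissue means. The 3 liver libraries hold 1.10% to 1.33% mt-Nd2 and the 3 spleen libraries 3.06% to 3.42%.

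Summed over the 7 genes, mitochondrial mRNA took 3.22%, 2.16% and 1.94% of all values in thymus replicates 1, 2 and 3, 2.52%, 1.67% and 1.92% in liver and 3.24%, 2.02% and 2.56% in spleen. The tissues overlapped, at 2.44% ± 0.685, 2.04% ± 0.440 and 2.61% ± 0.610 (SD, n = 3 each). The 93 nuclear members together took 0.340%, 0.369% and 0.382% in thymus, 0.336%, 0.377% and 0.460% in liver and 0.415%, 0.424% and 0.436% in spleen. All 3 spleen libraries lay above all 3 thymus libraries, and liver spanned both. The mitochondrial sum was 5.08 to 9.46 times the nuclear sum in thymus, 4.19 to 7.51 times in liver and 4.77 to 7.82 times in spleen, so the balance between the 2 genomes did not differ beyond the spread between libraries.

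**Figure D3:**
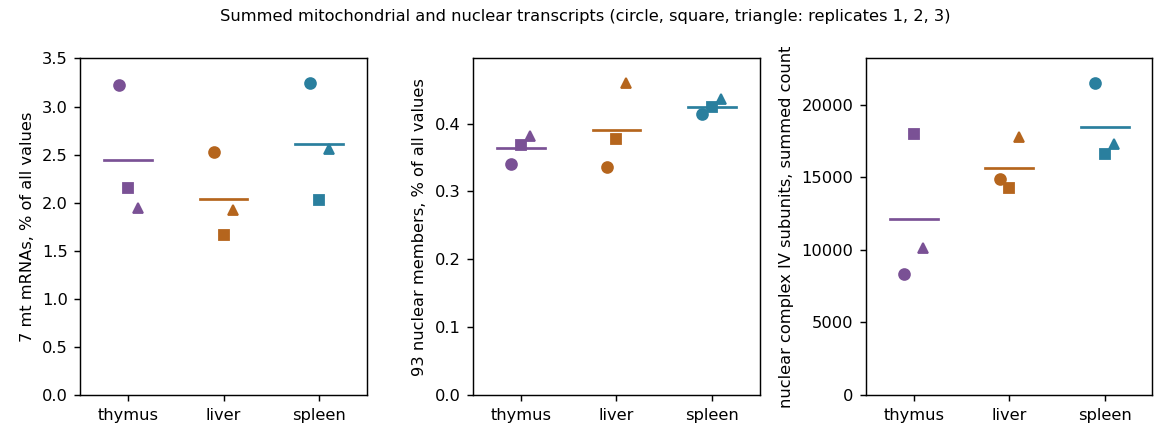
Sum of the 7 mitochondrial mRNAs (left) and of the 93 nuclear members (middle) as percent of all values, and summed normalised count of the nuclear complex IV subunits (right), per library with bars at the tissue means. The nuclear share is 0.415% to 0.436% in spleen and 0.340% to 0.382% in thymus.

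Of the 93 nuclear members, 91 passed the filter on low values (at least 1 in at least 3 libraries). The 2 that did not, Cox6a2 and Cox7a1, are the heart and muscle forms of complex IV subunits. limma-trend called 0 of the 91 in each comparison. At an unadjusted p under 0.05 there were 7 for liver vs thymus, or 7.69% against 11.6% of all genes, 14 for spleen vs thymus, or 15.4% against 11.7%, and 1 for liver vs spleen, or 1.10% against 3.03%. On the 7 libraries with recovered reads, edgeR called 0 in each comparison. DESeq2 called 1, Ndufv1 in spleen vs thymus, a comparison in which it called 268 of 13276 genes tested. The median log2 fold change was 0.34, 0.49 and -0.31 in that order, beside 0.29, 0.33 and -0.02 over all genes. With the count tools it was -0.14 (DESeq2) and -0.09 (edgeR) for liver vs thymus, and 0.11 and 0.16 for spleen vs thymus. For liver vs spleen it was -0.40 with both. Over all genes the medians of these tools lay between -0.05 and 0. limma-trend on the same 7 libraries gave 0.11 and 0.53 against thymus for the nuclear members. With TMM scaling of all 9 libraries their median was 0.05, 0.18 and -0.28, beside 0.04, 0.04 and 0.005 over all genes.

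Spleen and thymus did not overlap for 16 nuclear members, 14 higher and 2 lower in spleen. Among all genes tested 9.29% were higher and 6.03% lower in this way. For liver vs thymus there were 8 higher and 1 lower, beside 9.61% and 5.73% of all genes, and for liver vs spleen 1 higher and 12 lower, beside 5.97% and 6.77%. The mean log2 level of the 91 without the pseudogene was, per library, 8.005, 8.66 and 8.73 in thymus, 8.71, 8.91 and 9.19 in liver and 9.17, 9.18 and 9.22 in spleen. The spleen mean exceeded that of thymus by 0.72, or by 0.42 with TMM scaling, and the median of all genes tested also ran higher in spleen, at 8.29 to 8.40 against 7.86 to 8.30.

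**Figure D4:**
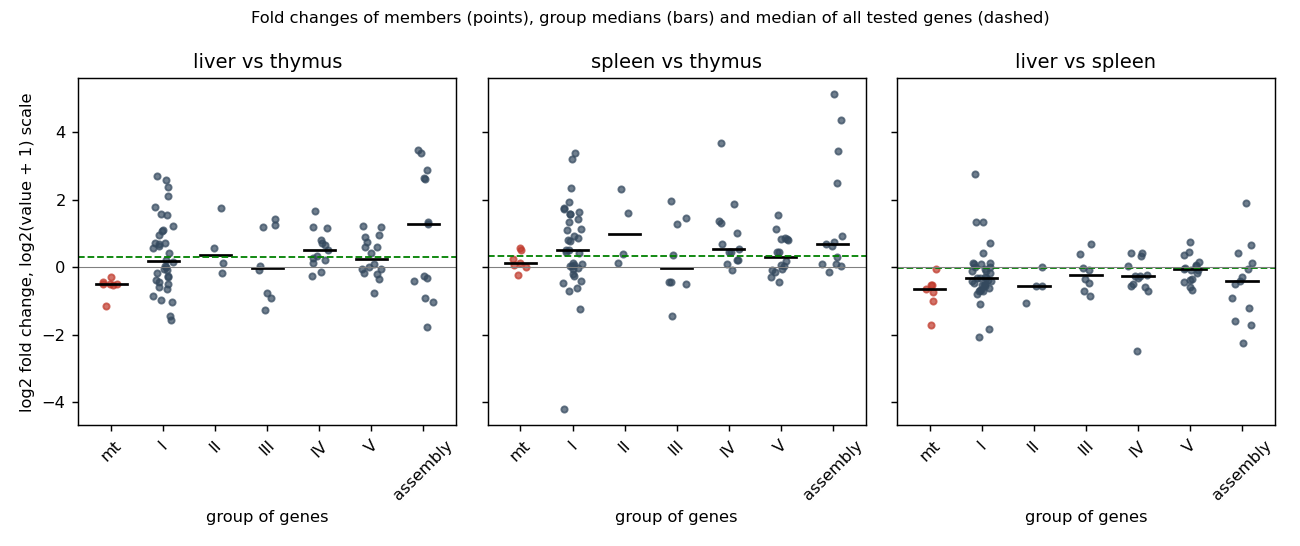
Log2 fold change of each tested member (points) in the 3 comparisons, by complex, with the median of each group (black bars) and of all genes tested (dashed). The mitochondrial members lie at -0.51, 0.13 and -0.65 in the median, and Ndufv1 is the low point of complex I in spleen vs thymus.

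Complex I, which oxidises NADH, had the member with the largest fitted difference in the negative direction. Ndufv1 (chr19:4007384-4012806, minus strand) encodes the subunit that binds NADH and the flavin. Its normalised counts were 2013, 1627 and 396.1 in thymus, 410.6, 254.0 and 611.9 in liver and 5.92, 85.2 and 339.9 in spleen. All spleen libraries were below all thymus libraries, while liver overlapped both. The log2 fold change for spleen vs thymus was -4.21 (SE 1.25), with an adjusted p of 0.198 by limma-trend. DESeq2 and edgeR used the 7 libraries with recovered reads, without spleen replicate 3, which held the highest spleen value. There DESeq2 called 268 of all genes and edgeR 6, and the adjusted p of Ndufv1 was 0.000694 by DESeq2 and 0.710 by edgeR. Over the alternatives the fold change ran from -5.48 to -2.67.

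The other core subunits described here did not follow it. Ndufv2, the partner of Ndufv1 in the NADH-binding module, had log2 fold changes of -0.00 for liver and 0.51 for spleen against thymus. Ndufs1, which carries iron-sulfur clusters in the same module, had -0.65 and -0.26, with thymus at 1925, 4354 and 482.6, liver at 938.7 to 1147 and spleen at 1095 to 1954. Ndufs8, of the module that passes electrons to ubiquinone, had -0.18 and -0.61. Ndufs7, of the same module, was at 46.0, 740.1 and 270.8 in thymus, 841.2, 723.5 and 1246 in liver and 258.6, 387.3 and 458.1 in spleen. It was the only nuclear member with every liver library above every spleen library, with a log2 fold change of 1.35 (SE 0.94).

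Ndufs3, a core subunit of the arm that faces the matrix, was at 1.14, 172.3 and 307.1 in thymus, 287.9, 316.7 and 345.9 in liver and 641.9, 524.2 and 377.1 in spleen. Spleen lay above both other tissues without overlap, with a log2 fold change against thymus of 3.37 (SE 1.52, adjusted p = 0.405) that was 1.12 without the single low thymus library. Ndufa9, an accessory subunit at the junction of the 2 arms, had a similarly low value in the same library, 25.8, against 1643 and 753.4 in the other thymus libraries and 488.4 to 1611 in liver and spleen.

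The accessory subunits Ndufa8 and Ndufs6 were lower in all thymus libraries than in all others. Ndufa8 was at 48.2, 16.2 and 115.4 in thymus, 247.9, 221.4 and 375.7 in liver and 577.8, 489.2 and 265.6 in spleen, with log2 fold changes against thymus of 2.57 for liver (SE 1.11, adjusted p = 0.393) and 3.19 for spleen (SE 1.11, adjusted p = 0.278). Ndufs6 was at 55.0, 72.9 and 141.7 in thymus, 277.5, 513.2 and 563.4 in liver and 465.2, 259.3 and 653.0 in spleen, with 2.37 and 2.36 (SE 0.94 each, adjusted p = 0.346 and 0.335). Ndufa6 and Atp5h shared the pattern, and both comparisons use the same thymus libraries. Ndufab1, the mitochondrial acyl carrier protein and a subunit of complex I, was even across tissues, between 309.9 and 908.7.

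Of the 36 complex I members, 26 had a positive fold change for spleen vs thymus and 26 a negative one for liver vs spleen. The positive share was thus 72.2% for spleen vs thymus, beside 61.2% of all genes tested. For liver vs spleen it was 27.8%, beside 48.9%. The medians of the 36 were 0.19, 0.50 and -0.33 in the 3 comparisons, beside 0.29, 0.33 and -0.02 over all genes. Among those lower in all liver than in all spleen libraries were Ndufa5 and Ndufa12, accessory subunits at 39.1, 128.7 and 273.0 against 924.7, 332.3 and 334.6, and at 97.4, 80.6 and 134.4 against 759.1, 364.6 and 181.0.

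Complex II, succinate dehydrogenase, is shared with the citric acid cycle. Sdha, its flavoprotein, was at 4262, 6420.1 and 2278 in thymus, 3261, 4141 and 3205 in liver and 7256, 5668 and 3306 in spleen. For spleen vs thymus 61.2% of all genes tested had a positive fold change. So did all 4 subunits, with a median of 0.99 and a limma-trend adjusted p of 0.412 or more. Sdhc, a membrane anchor, had the largest, 2.32 (SE 1.06), and was at 26.9, 1048 and 900.0 in thymus against 2641, 1225 and 1023 in spleen. Without thymus replicate 1, its low library, the value was 0.62.

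Complex III, the cytochrome bc1 complex, contained the other member that was lower in spleen than in thymus without overlap. Uqcrc1, a core subunit, was at 1066, 1581 and 802.2 in thymus, 530.6, 761.2 and 667.0 in liver and 263.9, 361.8 and 687.1 in spleen. Both other tissues lay below thymus, with log2 fold changes of -0.77 for liver and -1.45 for spleen (SE 0.63 each, adjusted p = 0.659 and 0.381). Its partner Uqcrc2 had 0.03 and 0.37, and Uqcrfs1, the Rieske iron-sulfur protein, -0.90 and -0.44. The 8 complex III members were split evenly, with medians of -0.03 in both comparisons against thymus.

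In the main fit most complex IV members had higher values in spleen and liver than in thymus, though none passed the test. For spleen vs thymus, 12 of its 13 tested nuclear members had a positive fold change, 4 of them at an unadjusted p under 0.05, and 4 did not overlap, all higher. Of all genes tested 61.2% were positive, 11.7% had such a p and 9.29% were higher without overlap. For liver vs thymus 11 of 13 were positive, beside 59.9% of all genes. Only 1 of the 13 had an unadjusted p under 0.05 and 1 was higher without overlap, beside 11.6% and 9.61% of all genes. The medians of the 13 were 0.50, 0.53 and -0.26 in the 3 comparisons. Signs of several members changed with the scaling or the libraries used. For spleen vs thymus, Cox5a, Cox5b, Cox6b1, Cox6c, Cox7a2 and Ndufa4 took both signs over the alternatives, down to -0.54 for Cox5b. For liver vs thymus, Cox5a, Cox6b1, Cox6c, Cox7c and Ndufa4 did. Cox4i1, Cox6a1, Cox7a2l and Cox8a stayed positive against thymus in both comparisons. The summed count of the nuclear complex IV members was 8345, 17989 and 10119 in thymus, 14872, 14241 and 17813 in liver and 21488, 16597 and 17329.6 in spleen, so thymus replicate 2 overlapped both other tissues.

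Cox8a, the small subunit VIII (chr19:7215153-7217616, minus strand), was at 421.5, 441.8 and 1049 in thymus, 2289.7, 908.8 and 1018 in liver and 3153, 1602 and 1856 in spleen. Every spleen library was above every thymus library, with a log2 fold change of 1.86 (SE 0.57, adjusted p = 0.211). Cox4i1, the regulatory subunit IV (chr8:120668222-120674207, plus strand), was at 677.1, 1309 and 320.9 in thymus, 1696, 2065 and 2567 in liver and 2970.2, 1668 and 888.6 in spleen. Liver did not overlap thymus, and the fitted log2 fold change was 1.66 (SE 0.59, adjusted p = 0.296), whereas 1 spleen library did.

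Cox6a1, the form of subunit VIa found outside muscle, was at 902.5, 2168 and 2001 in thymus, 2129, 2648 and 3041 in liver and 3948, 2556 and 3249 in spleen, with 1.02 (SE 0.42, adjusted p = 0.350) for spleen vs thymus. Cox7a2l, a factor that joins complexes III and IV, was at 346.4, 1131 and 366.1 in thymus and 1330.02, 1538 and 1174 in spleen, with 1.35 (SE 0.61, adjusted p = 0.405). Cox7c varied little within the peripheral tissues, at 1068, 1165 and 1127 in liver and 1709, 1573 and 1728 in spleen, without overlap, with -0.58 (SE 0.48) for liver vs spleen. Cox5a, Cox5b, Cox6c, Cox6b1, Cox7a2 and Ndufa4 overlapped between all tissues, with log2 fold changes against thymus from -0.27 to 0.65.

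The tissue-specific forms were low. Cox6a2 reached 24.6 in spleen replicate 1 and at most 1.19 elsewhere. Cox7a1 reached 72.9 in thymus replicate 3 and at most 0.597 elsewhere. Cox6b2, the testis form of Cox6b1, was at 31.5 and 68.3 in spleen replicates 1 and 2, at 12.01 in liver replicate 3 and below 1 in the other 6 libraries. Such single-library values give no level for a tissue. Cox4i2, Cox8b and Cox8c were not analysed here.

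Complex V, the ATP synthase, differed little between tissues in most of its members. Atp5b was at 23028, 11204 and 21516 in thymus, 19017, 16353 and 21052 in liver and 14273, 13009 and 16354 in spleen, with fold changes of 0.08 and -0.29 against thymus (SE 0.26 each). The alpha subunit Atp5a1 had -0.06 and -0.04, and the gamma subunit Atp5c1, part of the rotating stalk, -0.76 and -0.07. Atp5h, subunit d of the peripheral stalk, stood apart, at 1282, 1952 and 1158 in thymus, 2952, 2594 and 2393 in liver and 2744, 2050.1 and 3019 in spleen, with 0.89 and 0.85 (SE 0.39 each, adjusted p = 0.397 and 0.412). The medians of the 16 members were 0.24, 0.31 and -0.07, close to those of all genes.

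Assembly factors build or mature the complexes and were the least even group. Of the 13, 12 had a positive fold change for spleen against thymus, beside 61.2% of all genes tested, with a median of 0.68 beside 0.33. Sdhaf1, which helps to place iron-sulfur clusters in Sdhb, was at 6.75, 0.0272 and 17.6 in thymus, 7.80, 78.1 and 85.2 in liver and 299.9, 97.7 and 210.7 in spleen. Spleen lay above both other tissues, and the fitted log2 fold change of 5.12 (SE 1.80, adjusted p = 0.281) depends on the value of 1 added before the logarithm, since thymus replicate 2 held no read. Ndufaf3, which acts early in complex I assembly, was at 358.8, 67.1 and 77.8 in thymus, 1148, 524.4 and 786.5 in liver and 42.4, 332.2 and 614.1 in spleen, with 2.65 (SE 1.12, adjusted p = 0.381) for liver vs thymus. Ndufaf2 and Ndufaf7 were higher in all spleen than in all thymus libraries, with 4.37 (SE 1.82) and 3.44 (SE 1.56), from thymus values of 0.0212, 4.66 and 66.5 and of 3.39, 13.9 and 101.6. Over the alternatives these ran from 2.51 to 5.98 and from 2.19 to 4.66, and that of Ndufaf2 depends on the added 1, since thymus replicate 1 held no read.

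The nuclear members varied more between thymus libraries than between those of the other tissues. The median SD of log2(value + 1) over the 91 nuclear members was 1.13 in thymus, 0.432 in liver and 0.499 in spleen, beside 1.34, 0.761 and 0.766 over all genes. In thymus 25 of the 91 varied at least 10-fold between libraries, in liver 5 and in spleen 6, or 27.5%, 5.49% and 6.59%, beside 39.8%, 23.3% and 22.6% of all genes tested. Among the assembly factors this held for 10 of 13 in thymus. The 7 mitochondrial members had median SDs of 0.602, 0.503 and 0.520, and none varied 10-fold within a tissue. Of the 98 tested members, 8 were below 1 in at least 1 library: Ndufaf2, Ndufaf8, Sdhaf1, Sdhaf3, Sdhaf4, Atp5s, Cox6b2 and the pseudogene Atp5l-ps2, whose reads may be shared with Atp5l.

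**Figure D5:**
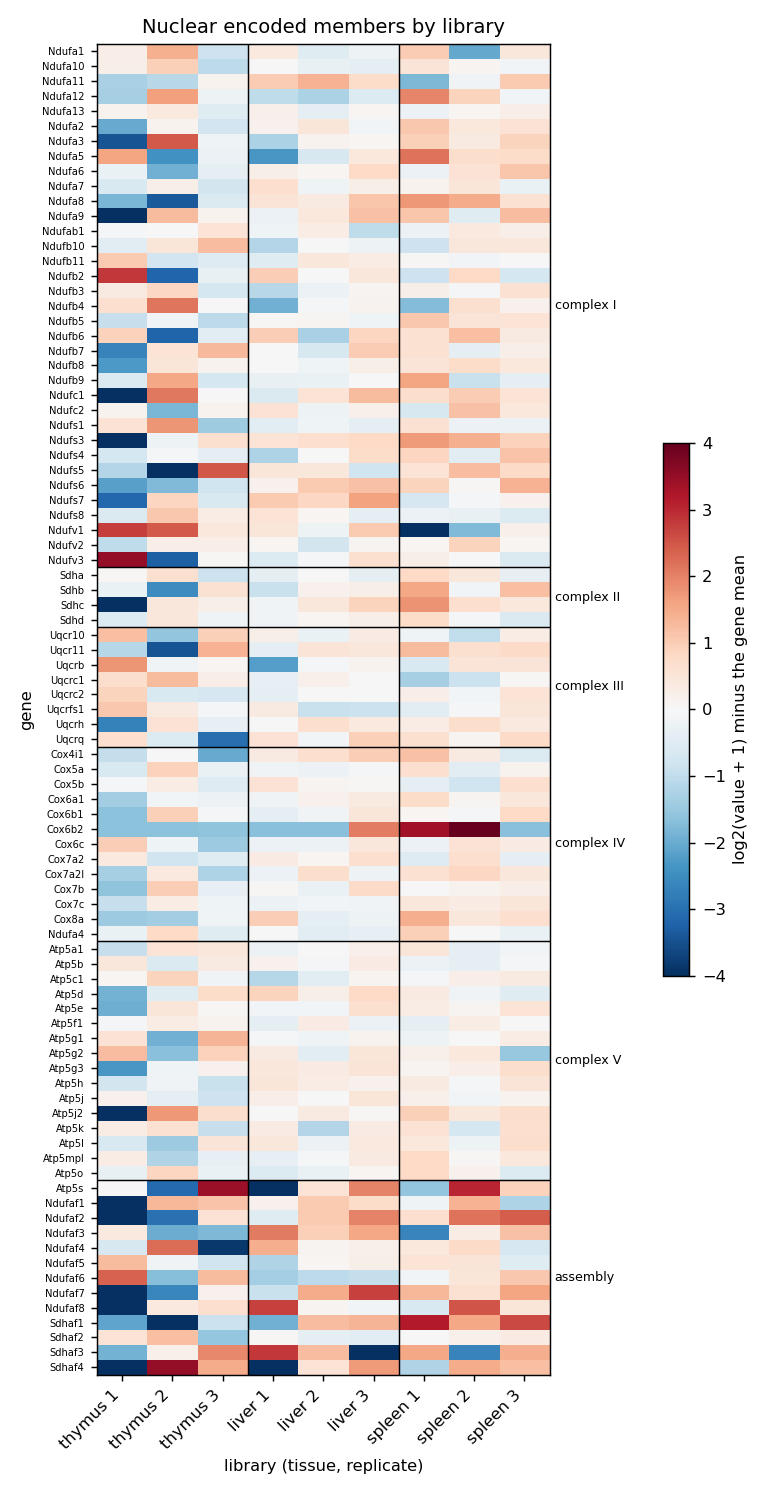
Log2(value + 1) of most of the tested nuclear members in each library, minus the mean of the gene over the 9 libraries, by complex; colours stop at -4 and 4. The 3 thymus columns hold most of the deep colours, while complex IV and V are paler, and Ndufv1 runs from red in thymus to blue in spleen.

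Binding sites of nuclear respiratory factor 1 (NRF1), of ETS proteins such as GABP and of YY1 are known features of respiratory gene promoters, so the 250 bases ahead of each RefSeq start (GRCm38.p6) were searched on both strands. Of 92 nuclear members other than the pseudogene, 78 were matched by symbol or synonym. The NRF1 letters, GCGC, then A and any base, then GCGC, were found in 14, or 17.9%, against 4.23% of 27025 genes. The letters CCGGAAG (ETS) were found in 16, or 20.51%, against 7.83%. The letters AAGATGGCG (YY1) were found in 1, Atp5j, against 0.711%. Of the 14 members with NRF1 letters, 4 were higher in spleen than in thymus without overlap (Cox6a1, Ndufa8, Ndufs6 and Atp5h) and 10 were not, Sdha and Atp5c1 among them. Of the 63 tested members without the letters 9 were, and of all genes tested 9.29%. With the ETS letters 3 of 16 were, and without them 10 of 61. A link between the letters and the levels was not tested. A match describes these letters only.

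The stretches are printed for 4 members that were higher in all spleen than in all thymus libraries, with the matching letters in capitals. The first holds 2 NRF1 matches, and the ETS match of Cox6a1 lies nearer the start. Only the first stretch lies wholly ahead of the gene as GENCODE annotates it, and the other 4 lie partly or wholly within it.
Cox6a1, chr5:115348982-115349135, minus strand: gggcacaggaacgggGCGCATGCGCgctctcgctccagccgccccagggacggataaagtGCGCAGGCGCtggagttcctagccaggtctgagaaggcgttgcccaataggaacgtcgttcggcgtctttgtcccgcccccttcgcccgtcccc
Cox6a1, chr5:115348959-115348988, minus strand: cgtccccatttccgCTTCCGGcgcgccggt
Ndufs6, chr13:73328483-73328512, minus strand: ccgccgactgctgtGCGCCTGCGCcggcac
Ndufa8, chr2:36049349-36049378, minus strand: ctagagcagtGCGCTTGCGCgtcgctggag
Ndufs3, chr2:90904730-90904759, minus strand: cccgcgtccgcCCGGAAGaagagtcactgc

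Genes that serve the complexes from outside the symbol list were read from lists of named pathway genes. The mitochondrial transcription list had 1 of 10 genes past the threshold, Tefm, the elongation factor of the mitochondrial RNA polymerase, for liver vs thymus, where 0.323% of all genes passed. At an unadjusted p under 0.05 there were 3, 3 and 0 of the 10 in the 3 comparisons, namely Tefm, Polrmt and Tfam against thymus. Tefm was higher in liver than in thymus, with no read in the 3 thymus libraries, 725.8, 183.7 and 282.8 in liver (adjusted p = 0.0407) and 69.3, 73.6 and 246.6 in spleen (adjusted p = 0.109). Polrmt, the polymerase itself, was at 0.0212, 1.19 and 344.7 in thymus, 198.3, 369.0 and 104.1 in liver and 362.3, 341.2 and 567.4 in spleen, with 4.43 and 5.49 and adjusted p of 0.384 and 0.268. Tfam, which packages and activates mitochondrial DNA, was at 55.0, 962.1 and 64.0 in thymus and from 546.3 to 1488 in the other tissues, with 2.61 and 2.52 and adjusted p of 0.310 and 0.324. The fitted values and p of Tefm and Polrmt depend on the 1 added before the logarithm. Tefm was not followed over the alternatives. Without liver replicate 1, 2 or 3 the genes passing for liver vs thymus numbered 9, 8 and 8, in place of 43. Polrmt overlapped the other tissues through thymus replicate 3 and Tfam through thymus replicate 2, while each of the 7 mitochondrial mRNAs had a lower mean in liver than in thymus.

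The other lists had no gene past the threshold by limma-trend in the 3 comparisons. These were 18 genes of electron carriers and exchange, of which 2, 2 and 1 had an unadjusted p under 0.05, 34 assembly factors outside the symbols (2, 3 and 0), 16 genes of mitochondrial RNA processing and stability (2, 0 and 1), 8 of mitochondrial DNA maintenance (0, 1 and 0) and 9 nuclear regulators (3, 2 and 1). Of all genes 11.6%, 11.7% and 3.03% had such a p. Of the carriers, Cycs, cytochrome c, was between 191.7 and 823.4 in all libraries, with -0.05 and -0.29 against thymus. Cyc1, the cytochrome c1 of complex III, was at 3558, 168.9 and 26103 in thymus, values that lie far apart, and overlapped the other tissues. Surf1, an assembly factor of complex IV, was at 857.6, 2058 and 1332 in thymus and 463.7, 488.3 and 352.3 in liver, without overlap, with -1.63 (adjusted p = 0.317). Nrf1 was at 873.3, 1417 and 132.9 in thymus, 1103, 1102 and 703.5 in liver and 3044, 1932 and 1983 in spleen, with 2.05 for spleen vs thymus (adjusted p = 0.284).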

How the data were processed

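RNA-seq libraries were sequenced in reads of 75 bases, per the labels. The authors' deposited table holds normalised read counts, a signal that is not whole-numbered, for 14004 genes. The submitters' processing notes name Trimmomatic 0.33, TopHat2 2.1.0, HTSeq 0.6.1, edgeR and mm10; roles, annotation, scaling and strand setting are not given in the sources used here. Gene symbols matched 13359 identifiers. The tests had been planned for counts or normalised values; the latter applied.

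limma-trend (limma 3.58.1, R 4.3.3) was fitted to log2(value + 1) in the 13309 genes that reached 1 in 3 or more libraries, with 1 term per tissue over all 9 libraries. P-values are two-sided and were adjusted by Benjamini-Hochberg, and 0.05 was the cut-off. Low genes have their fold changes understated by the added 1. The fit was tested on simulated data. In 7 libraries low values lay within 0.1 reads of whole multiples of 1 read for 98.4% to 100.0% of values, and these reads went to edgeR 4.0.16 and DESeq2 1.42.0. edgeR called 5, 6 and 1 genes and DESeq2 261, 268 and 68. The members, lists and naming rule were chosen with earlier results of these data known. The rule names all mitochondrial members, members past the threshold, the 4 highest and 4 lowest without overlap, fixed core subunits (some are not reported here) and isoforms, and tested members without reads in a library; other genes come from the pathway lists or were picked after their values were seen. Lengths per kilobase sum all annotated exons, so levels depend on the annotation.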

Additional observations from a re-analysis of the deposited data

How the results depend on the processing

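For the 18 counts and levels, 255 recomputations left a count unchanged or moved a level by at most 1 SD, and 9 did not. Some of the 255 could hardly move, as when a library of the third tissue was left out. A sign could change within 1 SD. The mitochondrial level for spleen vs thymus went from 0.18 to -0.20 without thymus replicate 3, to -0.09 without spleen replicate 1 and to -0.13 with TMM scaling. Single members kept their side of the threshold in 3559 recomputations and not in 2. DESeq2 on the 7 libraries with recovered reads called 1 nuclear member for spleen vs thymus in place of 0 (Ndufv1), with 268 of all genes called. Array weights called 1 mitochondrial member for liver vs spleen, mt-Nd2, with 18 of all genes called in place of 2. The log2 fold change of mt-Nd2 was -1.82 (adjusted p = 0.00267 by limma-trend with these weights, between 0.00267 and 1.0 over all alternatives). TMM scaling reduced the nuclear difference in mean log2 level, spleen vs thymus, from 0.72 to 0.42. Without ribosomal RNA in the denominator the mitochondrial mRNA share was 3.48% in thymus, 2.97% in liver and 3.73% in spleen. A difference of mean log2 levels in place of the log2 ratio of sums gave 7.12, 6.10 and 6.59 in place of 2.71, 2.37 and 2.59.

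Without 1 replicate at a time, 0 members passed in every comparison, while the nuclear members at an unadjusted p under 0.05 ranged from 1 (without liver replicate 3) to 15 (without thymus replicate 2), from 5 (without spleen replicate 1) to 26 (without thymus replicate 2) and from 0 to 2 (without spleen replicate 3). The mitochondrial difference in mean log2 level for spleen vs thymus, 0.18, ranged from -0.20 to 0.44. Of all genes, 8 to 151 and 9 to 140 passed against thymus in place of 43 and 53, the highest without thymus replicate 3 and the lowest without a liver (8) or spleen (9) replicate. Without thymus replicate 3, mt-Nd2 reached an adjusted p of 0.0502 for liver vs thymus.

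Without the libraries numbered 2, 0 members passed, and the median log2 fold changes of the mitochondrial members were -0.22, 0.61 and -0.73.

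With the replicate block, 0 members passed, and 42 and 55 genes of all tested did against thymus. The block raised the mitochondrial members at an unadjusted limma-trend p under 0.05 for liver vs thymus from 1 to 5. Deviations of same-numbered samples correlated at -0.00073 to 0.0891, none over 0.1, against -0.0867 to 0.0484 for different numbers. The same-numbered correlations were positive except for thymus with spleen replicate 2, while most of the different-numbered ones were negative. Thymus replicate 2 correlated more with spleen replicate 1 than with its own number. Correlations this weak do not settle whether the numbers pair the samples, and the main fit did not treat them as pairs. Xist and the Y-linked genes did set the libraries numbered 2 apart in every tissue. Whether same-numbered samples share an origin was not tested. edgeR and DESeq2 on all 9 libraries and edgeR with the block were not run, because reads of liver replicate 3 and spleen replicate 3 were not recovered. The fits on 7 libraries were chosen after seeing the data. Depth is lowest in liver replicate 3 by an estimate that is uncertain.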

Other observations

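The 2 mitochondrial ribosomal RNAs, which lie ahead of mt-Nd1 on the same strand and are no members of the complexes, also differed in proportion. The ratio of mt-Rnr1, the small subunit RNA, to mt-Rnr2, the large subunit RNA, was 1.03, 1.06 and 1.09 in liver, 0.902, 0.979 and 0.950 in thymus and 0.964, 0.766 and 0.907 in spleen. All 3 liver libraries lay above the 6 others, although neither gene alone differed in its fitted change (log2 fold changes of 0.26 for mt-Rnr1 and -0.02 for mt-Rnr2 for liver vs spleen, adjusted p = 0.999859 for both). The ratio was chosen after its values were seen and was not tested.

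In each tissue the library numbered 1 had the highest share of mitochondrial mRNA, 3.22% in thymus, 2.52% in liver and 3.24% in spleen. Nothing in the labels ties the libraries of 1 number together.

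Atpif1, the inhibitor of the ATP synthase, was at 30.3, 10.4 and 90.3 in thymus, 84.4, 48.9 and 152.3 in liver and 232.6, 8.88 and 120.4 in spleen, with overlap between all tissues. Ucp2, an uncoupling protein of the inner membrane, was among the most abundant nuclear mitochondrial genes listed, between 13795 and 23854 in all 9 libraries. Slc25a5, an ADP/ATP carrier, was at 6487, 4855 and 5832 in liver and 3288, 3542 and 2643 in spleen, without overlap, with a log2 fold change of 0.86 (adjusted p = 0.999859).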
